A study of Homo sapiens with 2 samples.

Results

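Transcription factors that set gastric or intestinal identity were examined in a gastric carcinoma line and its drug-resistant derivative. The set comprised 9 genes, GATA4, GATA6, SOX2, SOX9, CDX1, CDX2, HNF4A, KLF5 and FOXA2, chosen by name from a total of 22411 genes, and each was read from the array row annotated to that symbol alone. Of these, 8 had such a row, and each of the 8 had exactly 1 row. HNF4A is not among the symbols of the annotation table used and was not analysed here. RNA was measured on 2 arrays, 1 of NCI-N87 cells made resistant to T-DM1 and 1 of untreated parental NCI-N87 cells, so there is no replicate and no test, and every difference describes these arrays only. NCI-N87 is an established human line from a gastric carcinoma in which ERBB2, encoding the receptor HER2, is amplified, and T-DM1 (trastuzumab emtansine, written TDM-1 in the labels) joins a HER2 antibody to a microtubule poison. Both groups share the line and its growth in culture at 37 degrees with 5% CO2. The labels do not say how resistance was selected, whether the resistant cells are 1 clone, or whether drug was present at harvest.

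The stomach and intestine are both lined by epithelium of endodermal origin, and a small set of transcription factors tells the compartments apart. FOXA2, a forkhead factor that opens closed chromatin, and the zinc finger factors GATA4 and GATA6 act early in endoderm and persist in its epithelia, while SOX2 marks foregut and stomach. The homeobox factors CDX1 and CDX2 specify intestine, and their appearance in the stomach accompanies intestinal metaplasia. HNF4A is a nuclear receptor of gut and liver epithelium, SOX9 is found in intestinal stem and progenitor cells, and KLF5 is a zinc finger factor of dividing epithelium. GATA4, GATA6 and KLF5 are known as recurrently amplified genes in gastric adenocarcinoma.

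The bases before the annotated transcription start are shown for CDX2 and KLF5, which differed in the same direction and lie on the same chromosome, and for GATA6, which differed in the other direction. They are the 250 bases upstream of the start, written in the direction of the gene, from RefSeq on GRCh38.p14; 5 of the 9 factors matched that table. KLF5 has 2 annotated starts, and both are given. Capitals mark matches, on either strand, to any of 6 short motifs: AGATAA for GATA factors, TGTTTAC for FOXA factors, TTTATG for CDX factors, AACAAT for SOX factors, CCNCNCCC for KLF factors and CAAAGTCCA for HNF4 factors.
CDX2, chr13:27969316-27969565, minus strand: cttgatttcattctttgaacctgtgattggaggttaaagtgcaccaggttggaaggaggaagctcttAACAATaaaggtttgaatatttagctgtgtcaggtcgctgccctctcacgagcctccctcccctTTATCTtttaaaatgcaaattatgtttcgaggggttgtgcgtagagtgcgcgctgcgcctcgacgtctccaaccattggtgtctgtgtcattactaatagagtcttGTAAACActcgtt
KLF5, first start, chr13:73054726-73054975, plus strand: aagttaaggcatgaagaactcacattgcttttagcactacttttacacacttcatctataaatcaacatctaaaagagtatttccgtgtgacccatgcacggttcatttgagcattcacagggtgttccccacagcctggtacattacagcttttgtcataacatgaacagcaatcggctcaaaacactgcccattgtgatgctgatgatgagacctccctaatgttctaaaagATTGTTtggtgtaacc
KLF5, second start, chr13:73058755-73059004, plus strand: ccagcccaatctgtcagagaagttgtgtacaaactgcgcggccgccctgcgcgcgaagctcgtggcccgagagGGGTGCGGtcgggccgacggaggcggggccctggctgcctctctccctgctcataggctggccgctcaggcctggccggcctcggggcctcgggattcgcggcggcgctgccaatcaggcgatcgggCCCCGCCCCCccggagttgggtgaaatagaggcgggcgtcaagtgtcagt
GATA6, chr18:22169339-22169588, plus strand: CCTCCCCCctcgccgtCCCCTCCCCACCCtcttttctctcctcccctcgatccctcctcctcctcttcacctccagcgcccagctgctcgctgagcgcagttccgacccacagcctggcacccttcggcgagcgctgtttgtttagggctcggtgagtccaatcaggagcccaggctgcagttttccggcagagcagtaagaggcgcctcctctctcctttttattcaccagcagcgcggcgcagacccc

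The CDX2 window held 1 GATA match at -119 to -114, 1 SOX match at -183 to -178 and 1 FOXA match at -13 to -7, counted from the start site, and no CDX, KLF or HNF4 match. The first KLF5 window held a single SOX match and the second 3 KLF matches, of which 2 overlap. The GATA6 window held 3 KLF matches, 2 of them overlapping, and no match to the other 5 motifs. Among all 35116 windows of the table, 9.17% held the GATA motif, 2.98% the FOXA motif, 9.64% the CDX motif, 8.98% the SOX motif, 53.4% the KLF motif and 0.325% the HNF4 motif. These matches are letters in a window. The arrays measured RNA, not binding.

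GATA6 and FOXA2 were higher in the T-DM1-resistant cells, and CDX2, KLF5 and GATA4 were lower. SOX9 differed less than these, and SOX2 and CDX1 were low on both arrays. The values are the authors' deposited log2 values, and differences are taken as resistant minus parental. A gene was called higher or lower when that difference was at least 1 in size, which is 2-fold on this scale, and when the higher of its 2 values reached a floor of 5.79, which is the median, across genes, of each gene's higher value. The floor is a rule of size, not a limit of detection. By this rule 2 of the 8 measured factors were called higher and 3 lower, against 4.79% of all 22411 genes called higher and 4.56% lower. Genes under the floor cannot be called, so the nearer background is the 11206 genes that reach it, of which 9.58% were called higher and 9.12% lower. Of the 6 factors at or above the floor, 2 were called higher, 3 lower and 1 neither. The median difference over the 8 factors was 0.20, against 0.03 over all genes, and 5 of the differences were positive and 3 negative. That median lies between SOX2 (0.32) and CDX1 (0.09), both under the floor, so it gives no lean of the factors that reach it. Among those 6, GATA6, FOXA2 and SOX9 had positive differences and CDX2, KLF5 and GATA4 negative ones.

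**Figure D1:**
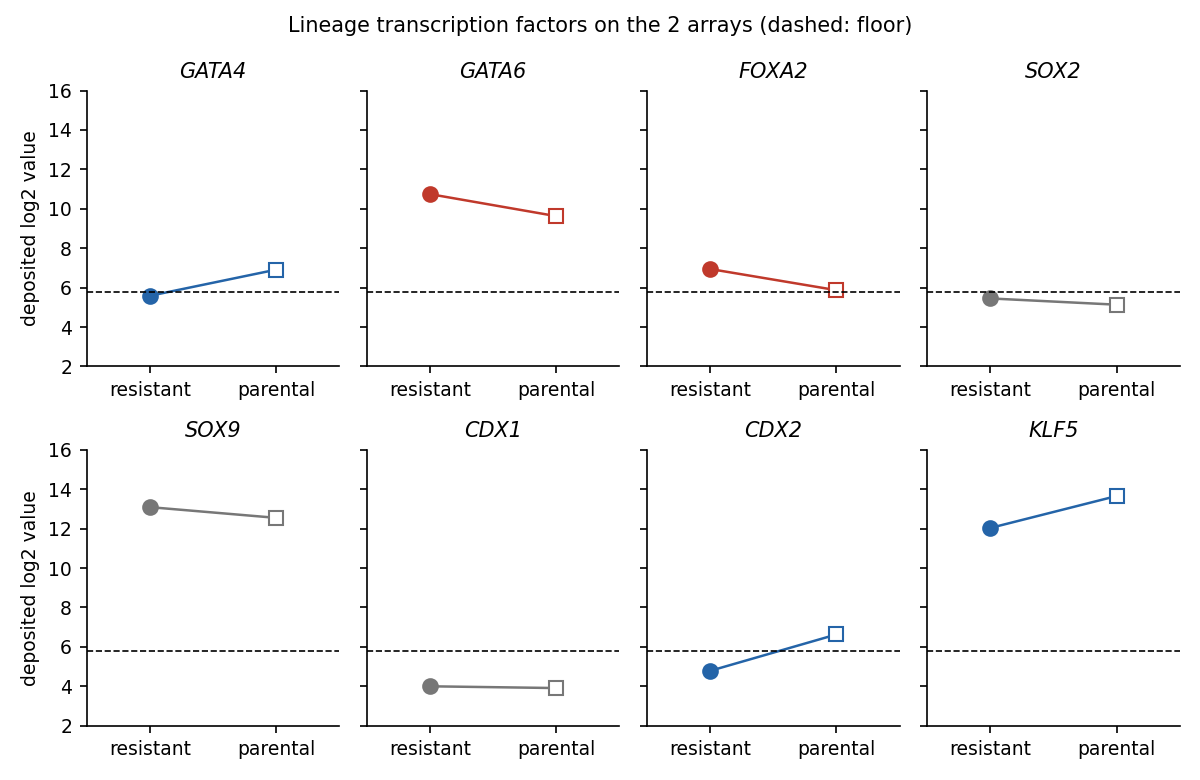
Deposited log2 value (vertical axis) of each measured factor on the T-DM1-resistant array (filled circle, left) and the parental array (open square, right), with the floor of 5.79 dashed; red lines are genes called higher, blue lower and grey neither. GATA6 and FOXA2 lie higher on the resistant array, GATA4, CDX2 and KLF5 lie lower, and SOX2 and CDX1 stay under the floor on both.

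The arrays were comparable in scale. Column medians over the 70523 rows were 4.76 on both, the 8 spiked control rows differed by at most 0.398 between the arrays, and genes that reached the floor had a median absolute difference of 0.41. Values reached 19.87 on the resistant and 19.93 on the parental array, past the 16 that a plain log2 of a 16-bit scan could give, so a fold on this scale need not be a fold in brightness.

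The GATA factors split. GATA6 was 10.74 in resistant and 9.62 in parental cells, a difference of 1.12 or 2.17-fold. Both values lay well above the floor. GATA4 was 5.58 in resistant and 6.91 in parental cells, a difference of -1.33, and because its resistant value lay under the floor it is given as at least 2.17-fold lower. Among genes that reached the floor, 8.22% had a difference as high as that of GATA6 and 5.78% one as low as that of GATA4. Of the 8 measured GATA factors and FOG cofactors, 5 lay at or above the floor. Of these 1 was called higher, 2 lower and 2 neither, beside 9.58% higher and 9.12% lower over all genes reaching it. The other one called lower was GATA2, a factor best known in blood progenitors, at 5.12 in resistant and 6.23 in parental cells (-1.11, at least 1.35-fold against the floor). GATA3, which is known in T cells and in urothelial and breast epithelium, was 8.32 in resistant and 8.16 in parental cells and was not called. ZFPM1, the gene of the cofactor FOG1, differed by 0.17, and GATA1, GATA5 and ZFPM2 lay under the floor on both arrays.

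FOXA2 was higher, and a relative of the unmeasured HNF4A showed the largest difference among the FOXA and HNF genes. FOXA2 was 6.94 in resistant and 5.87 in parental cells, a difference of 1.07 or 2.11-fold, with the parental value just above the floor. Its long non-coding neighbour LINC00261 lay under the floor on both arrays, at 3.70 in resistant and 3.55 in parental cells. FOXA1, which shares the DNA-binding domain of FOXA2, had a difference of the other sign, at 6.09 in resistant and 7.004 in parental cells (-0.91), and was not called. FOXA3 was 4.91 in resistant and 4.04 in parental cells, under the floor. HNF4G, the paralogue of HNF4A, was 10.43 in resistant and 7.60 in parental cells, a difference of 2.83 or 7.13-fold. Of the 8 measured genes of this group, 2 were called higher and none lower, and 3 lay under the floor. Over all genes reaching the floor, 9.58% were called higher and 9.12% lower. The median difference was 0.50, or 0.12 without FOXA2, and 7 differences were positive, among them those of the 3 under the floor. ONECUT3, a liver and pancreas factor family member, differed by 0.89 without being called.

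No SOX gene was called. SOX9 was 13.09 in resistant and 12.54 in parental cells, a difference of 0.54 or 1.46-fold that missed the size rule, and 20.7% of genes reaching the floor differed by as much in that direction. SOX2 was 5.45 in resistant and 5.13 in parental cells, and both values lay under the floor. The RNA of the overlapping gene SOX2-OT was likewise under it, at 4.78 in resistant and 4.68 in parental cells, and so was SOX9-AS1, at 4.68 in resistant and 4.57 in parental cells. Of 19 SOX genes measured, 16 lay under the floor, and the 3 at or above it were SOX9, SOX4 (-0.09) and SOX13 (0.51). Differences over the family ran from -0.36 in SOX30 to 0.54 in SOX9, with a median of 0.08.

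CDX2 was lower. It was 4.78 in resistant and 6.63 in parental cells, a difference of -1.85. The parental value exceeded the floor by 0.84, while the resistant value was below it, so the gene was at least 1.79-fold lower. Such a difference or a lower one was found in 2.79% of genes reaching the floor. CDX1, which acts with CDX2 in intestine, was 3.997 in resistant and 3.91 in parental cells and lay under the floor on both. PDX1 and GSX1, the ParaHox genes that sit beside CDX2, had no such difference. PDX1, a pancreas and duodenum factor, was 4.96 in resistant and 4.85 in parental cells, and GSX1, a factor of the developing brain, was 6.08 in resistant and 6.14 in parental cells. Of the 6 CDX and ParaHox genes, 2 lay at or above the floor, CDX2 and GSX1, and only CDX2 was called.

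KLF5 was lower within a family that went both ways. It was 12.03 in resistant and 13.65 in parental cells, a difference of -1.62 or 3.07-fold lower, and both values were far above the floor. A difference at or below that value was found in 3.69% of genes reaching the floor. Of the 17 KLF genes measured, 12 lay at or above the floor, and 1 of these was called higher, 4 lower and 7 neither. The shares over all genes reaching the floor were 9.58% higher and 9.12% lower. KLF12, a repressor of the family, was 5.39 in resistant and 9.14 in parental cells, at least 10.2-fold lower. KLF9, a gene induced by glucocorticoid and thyroid hormone, was 5.46 in resistant and 7.90 in parental cells, at least 4.33-fold lower. KLF13, which has 2 rows, was 6.41 in resistant and 7.45 in parental cells (-1.04) on the row used. With the mean of a gene's rows, 3 KLF genes rather than 4 were called lower, and KLF13 was no longer among them. KLF6, a factor induced in wounded and stressed cells, was 11.94 in resistant and 10.17 in parental cells, a difference of 1.77. KLF4, a factor of differentiated gut epithelium, differed by 0.10. The family's median difference was 0, and 8 differences were positive and 8 negative.

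**Figure D2:**
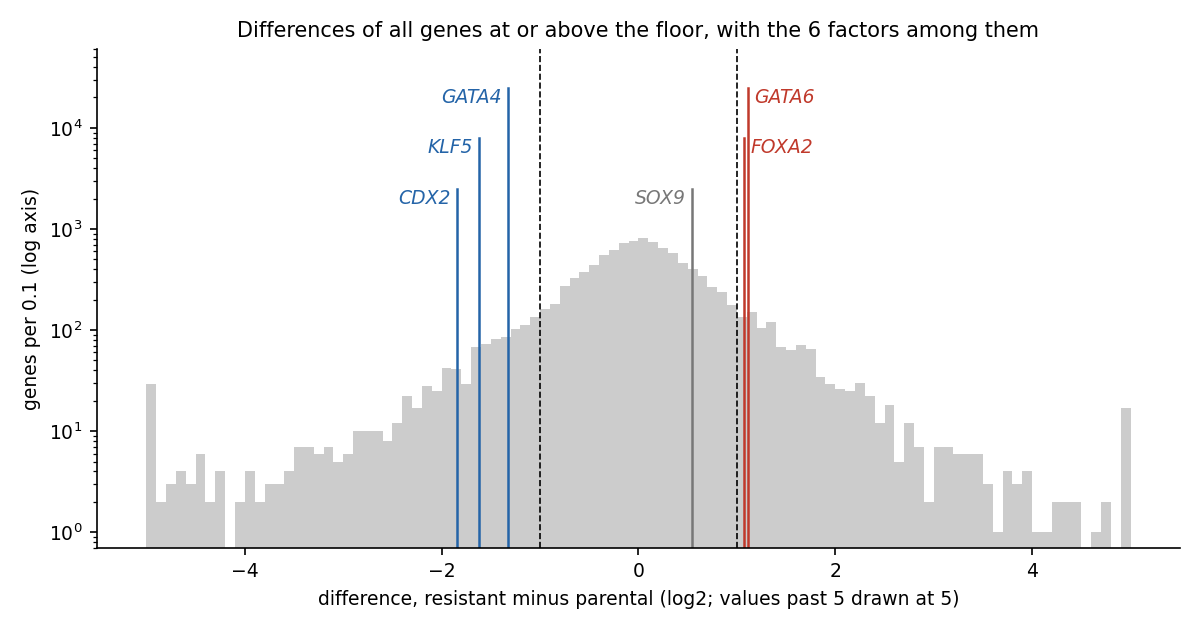
Histogram of the differences (resistant minus parental, log2, horizontal axis) of the 11206 genes that reach the floor, with the number of genes per bin of 0.1 on a log axis; dashed lines mark the size rule of 1 in either direction and coloured lines the 6 factors at or above the floor. CDX2, KLF5 and GATA4 lie left of the lower line, GATA6 and FOXA2 just right of the upper one, and SOX9 between them.

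**Figure D3:**
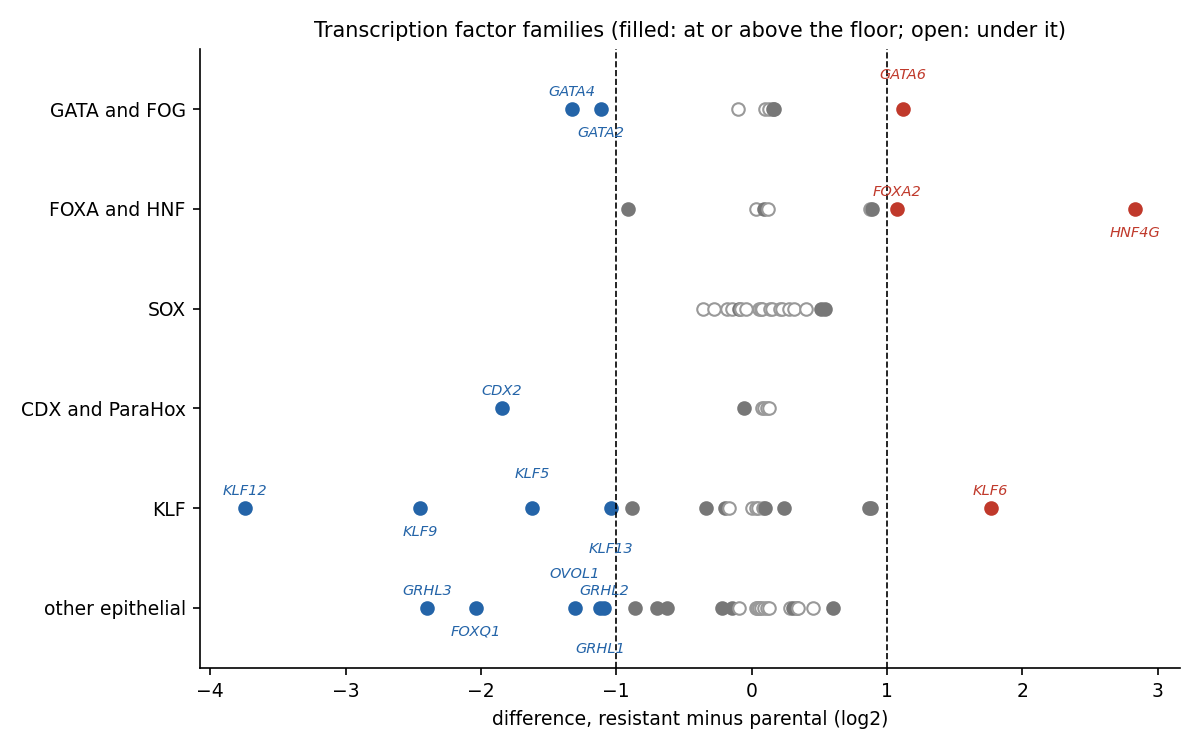
Differences (resistant minus parental, log2, horizontal axis) of each measured gene of the families, 1 row per family; filled points reach the floor of 5.79 on at least 1 array, open points do not, and called genes are named in red (higher) or blue (lower). The GATA and KLF rows hold genes called in both directions, the other epithelial factors only lower ones, and the SOX row none.

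The differences of CDX2 and KLF5 moved with those of the genes around them on chromosome 13. Taking the nearest 10 protein-coding genes on each side that reached the floor, 19 of the 20 around CDX2 had a negative difference, 13 were called lower and none higher, and their median was -1.33. Around KLF5, 18 of 20 were negative, 11 were called lower and none higher, and the median was -1.11. KLF12 is the nearest of these genes on one side of KLF5. The 163 other protein-coding genes of chromosome 13 that reached the floor had a median of -1.09, and 87 of them were called lower. Lower calls were thus frequent along the chromosome, against 9.12% of all genes reaching the floor. Less the median of its neighbours, CDX2 differed by -0.52 and KLF5 by -0.51, and neither passed the size rule. Within the CDX2 window GTF3A (-2.34), UBL3 (-3.04), GSX1 (-0.06) and KATNAL1 (0.57) show the spread. The arrays hold RNA levels, and the number of chromosome copies was not analysed here.

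The other called factors lay on chromosomes whose median differences were near 0. GATA6 differed by 1.12 while its 20 neighbours on chromosome 18 had a median of 0.05, with 10 positive and 10 negative, and it stayed past the size rule less that median (1.07). The neighbour CABLES1 (1.96) was higher still. FOXA2 differed by 1.07 while its neighbours on chromosome 20 had a median of -0.21, and no neighbour had a difference as high, the highest being 0.58. GATA4 differed by -1.33 while its 19 neighbours on chromosome 8 had a median of -0.26, of which 5 were called lower and 2 higher, and less that median its difference was -1.07. TNKS (-1.71), CTSB (-1.63), CLN8 (-1.42) and AGPAT5 (-1.35), among those neighbours, had lower differences than GATA4. Chromosome medians were 0 for chromosome 18, -0.09 for chromosome 20 and -0.08 for chromosome 8. Over all genes reaching the floor, 9.12% were called lower and 9.58% higher. For the uncalled factors, the neighbour medians were -0.35 for SOX2, -0.27 for SOX9 and -0.30 for CDX1.

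**Figure D4:**
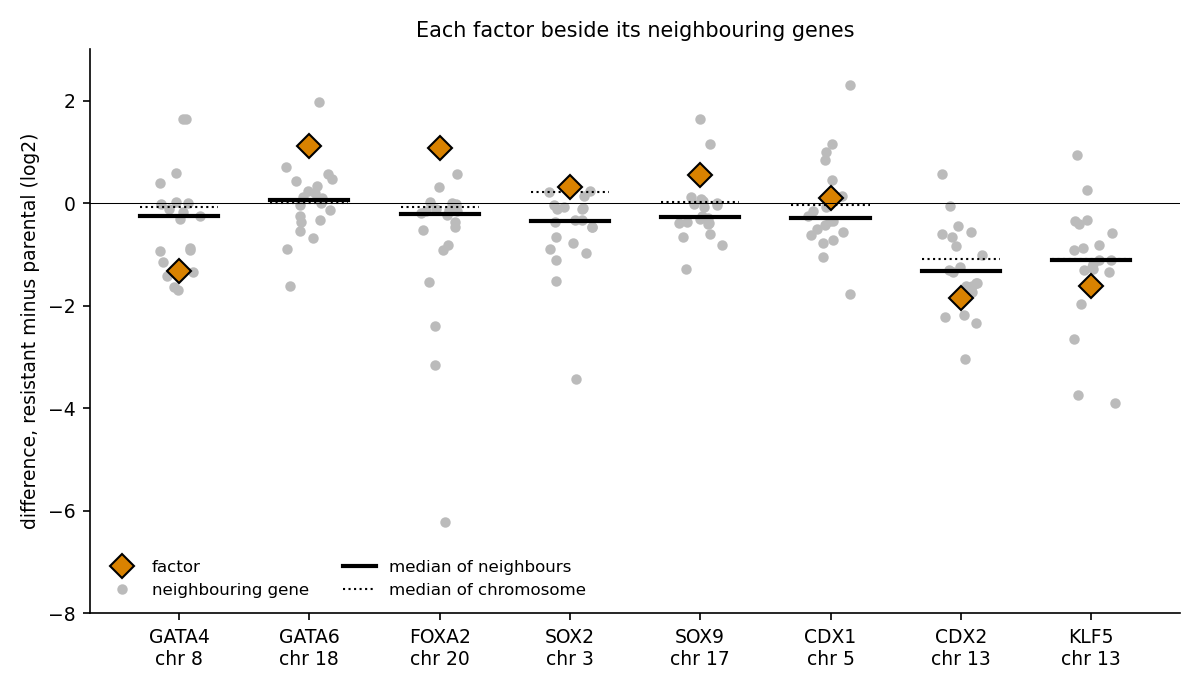
Difference (resistant minus parental, log2, vertical axis) of each factor (orange diamond) and of up to 10 protein-coding genes reaching the floor on either side of it (grey points), with the median of those neighbours (thick line) and of the chromosome (dotted line). The neighbour medians of CDX2 and KLF5, at -1.33 and -1.11, lie far below those of the other factors, which run from -0.35 to 0.05.

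Outside the families above, in which HNF4G among others was called higher, the other listed epithelial factors were called lower or not at all. That list also holds factors of epithelium in general. Of 25 measured, 13 lay at or above the floor, and 5 of these were called lower, none higher and 8 neither. The shares over all genes reaching the floor were 9.12% lower and 9.58% higher. All 3 grainyhead-like factors, which maintain epithelial junctions and barrier, were among the 5. GRHL3 was 6.34 in resistant and 8.73 in parental cells (-2.39), GRHL1 differed by -1.12 and GRHL2 by -1.09. FOXQ1, a forkhead factor known from gastric mucous cells in mouse, was 8.61 in resistant and 10.64 in parental cells (-2.04). OVOL1, a zinc finger factor of differentiating epithelium, was 6.32 in resistant and 7.62 in parental cells (-1.31). ELF3 (-0.63) and EHF (0.60), ETS factors of epithelium, and HES1 (-0.70), the Notch effector gene, were high on both arrays and not called. The intestinal factors ISX and ATOH1 and the gastric factors BARX1 and NKX6-3 lay under the floor on both arrays.

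Differentiation genes of the intestine were called in both directions, and most were under the floor. Of 33 measured, 6 lay at or above it, of which 3 were called higher and 2 lower. The shares over all genes reaching the floor were 9.58% higher and 9.12% lower. MUC13, a membrane mucin gene, was 11.01 in resistant and 6.38 in parental cells (4.62). VIL1, which encodes the microvillus protein villin, was 9.32 in resistant and 4.93 in parental cells, at least 11.6-fold higher. CDH17, the liver-intestine cadherin gene, was 6.64 in resistant and 4.40 in parental cells, at least 1.80-fold higher. KRT20 was 6.80 in resistant and 12.30 in parental cells (-5.49), and CEACAM5 was 7.33 in resistant and 11.87 in parental cells (-4.55). MUC2, SI, FABP1, GUCY2C and TFF3, which define mature intestinal cells, all lay under the floor on both arrays. The median over the 33 genes was 0.14, against 0.03 over all genes, and 24 differences were positive and 7 negative. Because 27 of the 33 lay under the floor, these figures give no lean of the genes that reach it.

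Gastric differentiation genes likewise split. Of 24 measured, 6 lay at or above the floor, of which 2 were called higher, 2 lower and 2 neither. The shares over all genes reaching the floor were 9.58% higher and 9.12% lower. MUC1, a membrane mucin gene, was 9.90 in resistant and 5.54 in parental cells, at least 17.3-fold higher, and CTSE, the gastric protease cathepsin E gene, was 7.37 in resistant and 5.17 in parental cells, at least 2.99-fold higher. PSCA, a surface protein gene of stomach and bladder epithelium, was 5.85 in resistant and 9.10 in parental cells (-3.24), and CAPN8, the gene of a stomach calpain, was 5.21 in resistant and 7.60 in parental cells, at least 3.50-fold lower. TFF1, TFF2, MUC5AC, MUC6, CLDN18, PGC, ATP4A and GKN1, which define the mature gastric lineages, were under the floor on both arrays. Most defining markers of mature gastric cells were thus under the floor in both samples of this gastric line. The median over the 24 genes, of which 18 lay under the floor, was 0.06, against 0.03 over all genes.

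**Figure D5:**
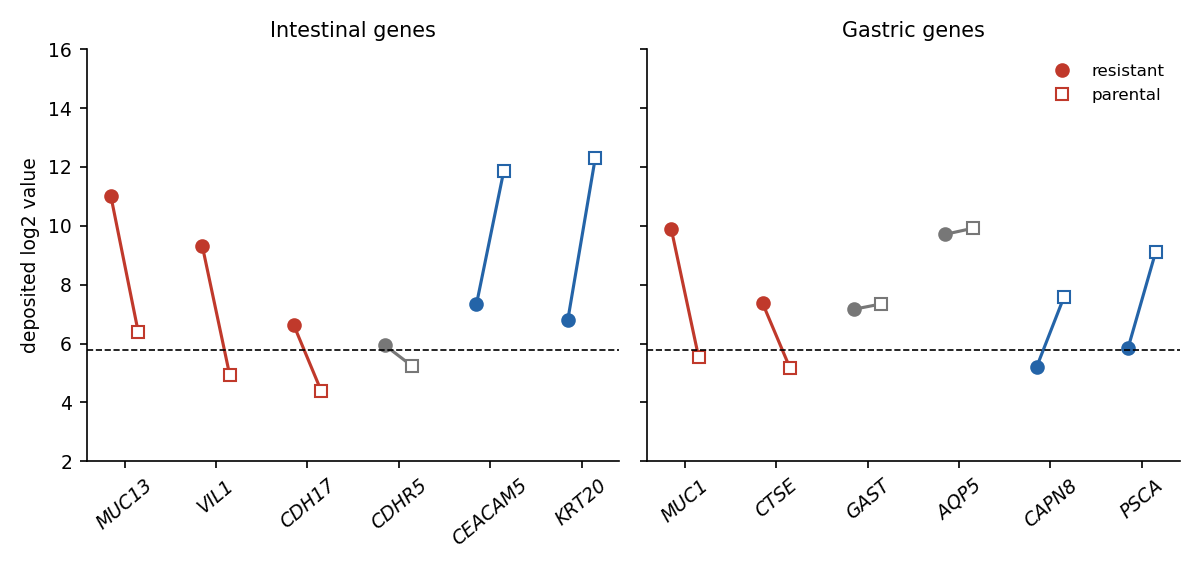
Deposited log2 values (vertical axis) on the T-DM1-resistant array (filled circle, left of each pair) and the parental array (open square, right) of the intestinal and gastric differentiation genes at or above the floor, which is dashed; red is called higher, blue lower and grey neither. MUC13, VIL1, CDH17, MUC1 and CTSE lie higher on the resistant array, and CEACAM5, KRT20, CAPN8 and PSCA lower.

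Epithelial markers were high on both arrays, and markers of other cell types mostly were not. All 10 general epithelial markers lay at or above the floor, and of these CDH1, the E-cadherin gene, was called lower (-1.10) and none higher. Of 13 immune markers, 3 lay at or above the floor (CD79A, CD68 and TYROBP), and of 13 fibroblast and endothelial markers 1 did (ESAM); none was called. Squamous markers differed in 1 direction, and all 6 measured had a negative difference, with a median of -1.03, and 3 were called lower. Over all genes reaching the floor, 9.12% were called lower. IVL was 3.71 in resistant and 12.40 in parental cells, DSG3 was 4.48 in resistant and 12.07 in parental cells, and KRT14 was 5.17 in resistant and 6.48 in parental cells, at least 1.61-fold lower against the floor. Of 9 neuroendocrine and hepatocyte markers, 2 were called lower, or 1 under quantile normalization, and none higher. SERPINA1 differed by -2.25. NCAM1 was 4.77 in resistant and 5.80 in parental cells, at least 1.01-fold lower against the floor. The part of these markers in the differences of the lineage factors was not tested. In bulk RNA, fewer cells with a transcript and less of it per cell cannot be told apart.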

How the data were processed

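Total RNA was labelled with biotin and hybridised to Human Transcriptome Array 2.0 arrays, per the labels' protocols. The authors deposited 1 table of values, taken as log2, with 70523 rows. Per the submitters' processing notes the software was Affymetrix Expression Console. Not given in the sources used here are its version, algorithm and normalization, the log base and the build. Rows with 1 gene symbol in the platform annotation (23781 of 25324 listed rows) were given current symbols from the gene table for GRCh38.p14, and the row with the highest mean was kept per gene. That table also gave the order of genes on chromosomes.

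Differences were computed in Python 3.11.15 with pandas 2.3.3; the loess alternative used statsmodels 0.14.6. With 1 array per group no test, standard error or p-value was computed, and precision is limited by the number of arrays. The size rule was run on simulated data with an assumed noise, and shifts larger than the threshold were set only on genes well above the floor. That run therefore does not cover genes near the floor or differences close to the threshold. The factors, gene lists and rules were chosen with earlier results of these data known. Named genes are the 9 factors, the called members of a list (at most 5, by size of difference), measured non-coding neighbours, and list members needed to account for a count. Genes named only as neighbours on a chromosome, and the uncalled list members singled out, were chosen after their values were seen.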

Additional observations from a re-analysis of the deposited data

How the results depend on the processing

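Differences and calls of the 8 measured factors kept their direction and side of the size rule under quantile normalization and loess centring. They also did so under median centring and the mean of a gene's rows, which are no check here. Each factor has 1 row, so a mean of rows leaves it unchanged, and the column medians were nearly equal before centring. The margins past the threshold of 1 were thin for GATA6 (1.12), GATA4 (-1.33) and FOXA2 (1.07, or 1.03 under loess centring). Each was less than 0.398, the largest difference of the spiked control rows between the arrays. Less the chromosome median, CDX2 differed by -0.75 and KLF5 by -0.53, and less the median of its neighbours by -0.52 for CDX2 and -0.51 for KLF5; under either, 1 factor was called lower (GATA4). With the floor at the 75th percentile (8.42), 1 factor was called higher (GATA6) and 1 lower (KLF5), and 640 of all genes were called lower, by the construction of a stricter floor. At a threshold of 1.5-fold, 2166 genes were called higher and 2016 lower, and the factors' calls did not change. At 4-fold, 0 factors were called in either direction, and 234 genes were called higher and 251 lower. Less the chromosome median, 1 ParaHox gene was called higher (GSX1) and CDX2 was no longer called. Of 252 list counts recomputed under the alternatives, 227 stayed within 1.5 times the main count. Many of the 252 compare 0 with 0, as for the SOX, immune and fibroblast lists, and a stricter rule cannot change such a count. The 227 is therefore no measure of how well the nonzero counts hold. No paired analysis was possible because each group has 1 array, and leaving out an array leaves no comparison. Without detection calls, levels near the floor, among them those of FOXA2, GATA4 and CDX2, are the least certain.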

Other observations

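The neighbourhood of FOXA2 on chromosome 20 held 6 cystatin genes, of which 3 were called lower in resistant cells and none higher. Of the 274 other protein-coding genes of chromosome 20 that reached the floor, 27 were called lower. The share over all genes reaching the floor was 9.12%. CST7, which encodes cystatin F, an inhibitor of cathepsins in immune cells, was 5.73 in resistant and 11.96 in parental cells (-6.23). CST5 was 4.84 in resistant and 7.9997 in parental cells (-3.16), and CST1 was 4.71 in resistant and 6.25 in parental cells (-1.54). CST2 (-0.92), CST3 (-0.16), the broadly expressed cystatin C gene, and CSTL1 (0.02) were not called. THBD, the thrombomodulin gene next to FOXA2 in this ordering, was 5.52 in resistant and 7.93 in parental cells (-2.41). The resistant values of CST7, CST5, CST1 and THBD lay under the floor of 5.79, so the sizes of their differences are uncertain. These genes were chosen after their values were seen, and a relation to FOXA2 was not tested.

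Beside KLF5, SCEL, which encodes the cornified envelope precursor sciellin, was 9.24 in resistant and 13.15 in parental cells (-3.90), the lowest difference among the 20 neighbours of KLF5.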
